A study of Mus musculus with 4 samples.

Results

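CTCF, a DNA-binding protein with many zinc fingers, halts the extrusion of chromatin loops by cohesin and so marks loop anchors and the borders of domains. Many of its sites are bound in most cell types, and a smaller, generally weaker set differs between tissues. In the limb bud, CTCF sites flank the regulatory landscapes through which homeobox genes such as the Hoxa and Hoxd genes act along the proximal to distal axis. The regions described here were called in posterior trunk and in exactly 1 of the 2 parts of the forelimb, and not in brain. There were 4938 of them among 121759 regions, which is 4.06%. They form the trunk+distal class, with 2398 regions or 1.97% of all, and the trunk+proximal class, with 2540 regions or 2.09%.

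The regions come from CTCF ChIP-seq peak lists of wild-type (WT) B6CBAF1 mouse embryos, made with the same CTCF antibody and 1 library per tissue. Posterior trunk, labelled E10, was a pool of about 30 embryos and held tailbud, presomitic mesoderm and a few pairs of somites, with hindlimb buds avoided as far as possible. Brain was telencephalon pooled from 6 embryos at E12.5, and distal and proximal forelimb, both at E12.5, are labelled as data analysed again. Trunk therefore differs from the other samples in stage as well as in tissue, and these cannot be told apart. The label of data analysed again goes with forelimb, so it cannot be told apart from tissue either. Peaks that shared at least 1 base were merged into regions, and each region was assigned to every tissue with a peak inside it. The calls themselves chose the members, so the strengths below are descriptions with no test, and with 1 library a tissue there is neither a replicate check nor a p-value. CTCF peaks do not measure expression, so the tissue labels could not be checked against marker genes.

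The libraries differed in depth as estimated from their backgrounds, which bears on what a missing call can mean. The lists held 106662 peaks for trunk, 74127 for brain, and 64793 and 63873 for the distal and proximal part of the forelimb. Relative to distal forelimb, depth read from the lowest background was 2.21 in trunk, 2.02 in brain and 1.08 in proximal forelimb. By this measure the 2 forelimb libraries were close to each other and the other pair was deeper. Read totals, which would give depth directly, are unknown.

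Sequence could be shown for members whose forelimb summit lay in a promoter, taken as the 250 bases before and 50 after a gene start in RefSeq (GRCm38.p6, the assembly of mm10). This applied to 52 trunk+distal and 66 trunk+proximal regions. A core of the CTCF motif was searched on both strands, spelled CCA, any 2 bases, AG, any 2 bases, GGC. It was present in 5 and 6 of these. The lines that follow show those matches that lie before the gene start with the bases around them, on the strand of the gene, with the match in capitals. The first 4 are promoters of trunk+distal regions, and the other 5 are promoters of trunk+proximal regions.
Calr, chr8:84847077-84847148, minus strand: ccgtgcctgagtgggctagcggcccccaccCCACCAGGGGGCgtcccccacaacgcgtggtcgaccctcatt
Srrm3, chr5:135817963-135818034, plus strand: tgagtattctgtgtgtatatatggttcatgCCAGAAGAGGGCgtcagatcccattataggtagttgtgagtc
Gm38931, chr6:149554509-149554580, minus strand: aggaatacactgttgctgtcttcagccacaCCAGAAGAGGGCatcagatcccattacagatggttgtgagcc
Cpsf6, chr10:117376999-117377070, minus strand: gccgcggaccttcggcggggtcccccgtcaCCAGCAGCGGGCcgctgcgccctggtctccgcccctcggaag
Ubqln1, chr13:58215654-58215716, minus strand: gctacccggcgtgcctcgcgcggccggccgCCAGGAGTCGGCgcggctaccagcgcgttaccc
Gm36063, chr16:90627641-90627712, minus strand: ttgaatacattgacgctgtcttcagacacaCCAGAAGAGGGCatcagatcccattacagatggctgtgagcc
Dnpep, chr1:75317068-75317139, minus strand: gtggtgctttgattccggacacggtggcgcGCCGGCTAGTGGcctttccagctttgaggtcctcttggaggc
Apmap, chr2:150608572-150608643, minus strand: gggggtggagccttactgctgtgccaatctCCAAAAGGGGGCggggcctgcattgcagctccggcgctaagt
Gm32315, chr7:139235114-139235185, minus strand: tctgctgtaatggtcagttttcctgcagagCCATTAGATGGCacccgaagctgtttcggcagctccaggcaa

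The match in the Calr promoter, of a gene for a calcium-binding chaperone of the endoplasmic reticulum, lay 13 bases from the distal forelimb summit. In Ubqln1, which encodes a ubiquilin of protein quality control, the match lay 35 bases from the proximal summit. The median distance from match to summit was 25 bases over the matches of trunk+distal regions and 34 over those of trunk+proximal regions. Cpsf6, a gene for a subunit of an mRNA 3′-end processing complex, had the largest distance, 147 bases. The Calr match also lies in the promoter of 1700122E12Rik on the other strand, and the median of 25 bases counts it once for each gene.

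The word CCAGAAGAGGGC recurred in both classes. It was the match in Srrm3, Gm38931 and Gm36063, and the letters after it were also alike, with 29 of 30 identical between Gm38931 and Gm36063 and 25 of 30 between Srrm3 and Gm38931. Of the promoter regions with a motif match, 3 of 5 trunk+distal and 2 of 6 trunk+proximal regions held this word, as did 9 of 32 trunk-only regions, 10 of 249 regions called in all 4 tissues and 0 of 3 called in trunk and both forelimb parts. Over all 32851 promoter windows the word was in 81 of the 797 with a match. As background, rodent B2 repeats are known to carry CTCF motifs. No repeat annotation was used here, and the word was singled out after the sequences were seen.

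Motif matches were present in 9.62% of the trunk+distal promoter summits (exact 95% binomial interval 3.20% to 21%) and in 9.09% of the trunk+proximal ones (3.41% to 18.7%). In all promoter windows the share was 2.43%, in trunk-only regions 4.76%, and in regions called in all 4 tissues 15.2%. Regions called in trunk and both forelimb parts had 8.11%, with 3 of 37. The intervals of both member classes hold all 3 of these class values, so the members could not be told from any of these classes at these counts. The intervals cover counting error only. Most promoter members therefore showed no such letters. An example is Znrf2, a gene for a ubiquitin ligase and the promoter member with the highest distal fold, whose summit base is in capitals here.
Znrf2, chr6:54816737-54816837, plus strand: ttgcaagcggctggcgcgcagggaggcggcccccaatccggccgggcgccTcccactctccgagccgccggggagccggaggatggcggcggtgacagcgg
Eml4, chr17:83350681-83350776, plus strand: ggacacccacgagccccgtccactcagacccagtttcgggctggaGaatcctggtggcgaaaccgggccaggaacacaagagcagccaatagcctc
The stretch of Znrf2 was 78.2% G and C, and that of Eml4, a microtubule-binding protein gene with a proximal summit, was 62.5%.

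Members ranked low in the forelimb lists and less low in the longer trunk list. The strength of a peak is given by the authors' fold, the summit pileup over the local background, and by its rank percentile within its own list, where the strongest peak is at 100. Trunk+distal regions had a median rank percentile of 11.8 in distal forelimb and 32.3 in trunk. Trunk+proximal regions had medians of 11.4 in proximal forelimb and 32.6 in trunk. Median folds were 3.38 in distal forelimb and 3.57 in trunk for the first class, and 3.37 in proximal forelimb and 3.52 in trunk for the second. By these measures both classes were alike. Ranks from lists of unlike length do not compare the tissues, and the median folds in trunk and forelimb were close, so a stronger trunk peak is not shown.

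**Figure D1:**
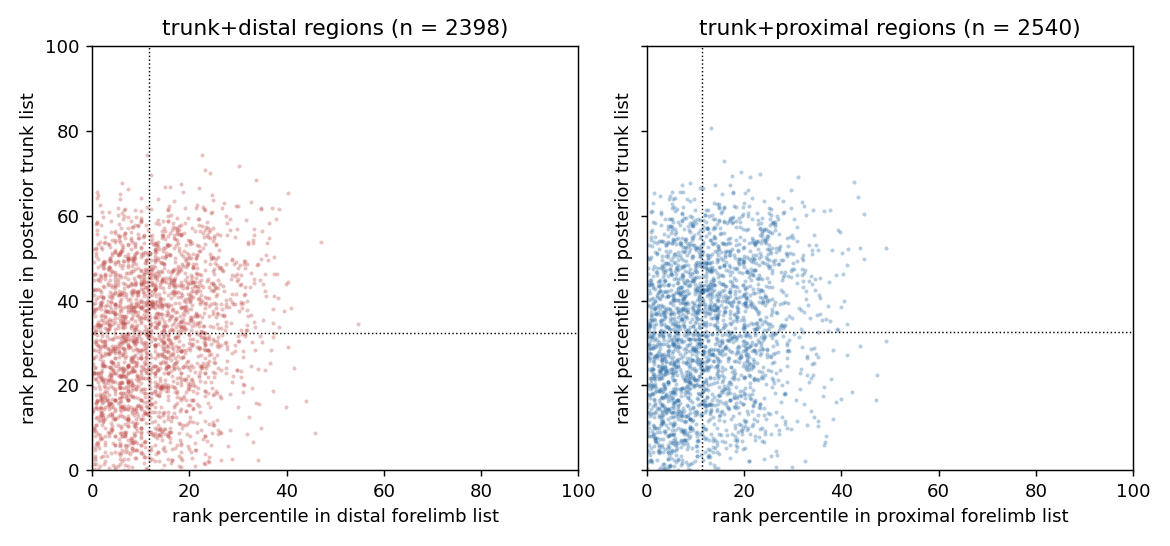
Each point is a region, placed by its rank percentile in the list of its forelimb part and in the posterior trunk list, for 2398 trunk+distal and 2540 trunk+proximal regions. Dotted lines mark the medians, which are near 11 to 12 for the forelimb and near 32 to 33 for trunk in both panels.

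The highest forelimb rank of a member was 54.7 in distal and 49.2 in proximal forelimb, so 1 of the 4938 regions reached the stronger part of its forelimb list. In the trunk list 329 trunk+distal and 414 trunk+proximal regions ranked above 50. Rank in trunk and rank in forelimb were weakly related across regions, with Spearman's rho of 0.17 over the 2398 and 0.19 over the 2540 regions, all from the same libraries. Pileup divided by the lowest background of the library had medians of 4.82 in trunk against 4.50 in distal forelimb, and 4.82 against 4.58 in proximal forelimb. Trunk was the higher of the pair in 53.9% of trunk+distal and 58.4% of trunk+proximal regions. The lowest member on this scale was at 2.14 in trunk and 2.84 in either forelimb part, so the limits of the lists still differed. At the other end, the weakest members had a −log10 q of 1.32 in distal and 1.31 in proximal forelimb, just inside the limit of the lists near 1.3. Regions just outside that limit are not listed.

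Trunk and forelimb summits lay within 50 bases of each other in most members. The median distance between them was 30 bases for trunk+distal and 28 for trunk+proximal regions, and 71.2% and 73.3% lay within 50 bases. Regions called in trunk and both forelimb parts had a median of 22 bases from trunk to either forelimb summit, and those called in all 4 tissues had 9. Within 50 bases lay 82.7% for distal and 82.9% for proximal summits of the former, and 96.7% for either summit of the latter. Summits of members thus coincided less often than in these 2 classes. Members also had lower forelimb pileups, with medians of 19 reads in distal and 21 in proximal forelimb. The former class had 23 and 24 and the latter 72 and 71. Summit distances at like pileup were not taken. In 65 trunk+distal and 55 trunk+proximal regions the summits were over 200 bases apart.

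The next comparison asked how often a trunk site of one forelimb part was also called in the other. Of the 41254 trunk regions without brain, 10.2% were called in distal and 10.5% in proximal forelimb, and 6729 had a peak in at least 1 of them. Both parts shared 26.6% of these, 35.6% were distal only and 37.7% proximal only. Where brain was called along with trunk, both parts shared 88.1% of 58665 regions. Where neither trunk nor brain was called, they shared 5.86% of 6899, and where brain was called without trunk 32.7% of 1078. Low sharing was thus not particular to trunk regions without brain.

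Peaks without brain were weaker, so shares were also taken at like pileup. Distal peaks with a pileup of 21 to 25 reads, in trunk regions without brain, were also called in proximal forelimb in 48.5% of 1168 cases, against 75.1% of 4503 where brain was called. Proximal peaks of the same pileup were found in distal forelimb in 41.1% of 1358 cases without brain and in 74.7% of 4453 with brain. At a pileup of 41 or more the shares without brain were 84.4% of 154 distal and 76.3% of 194 proximal peaks, and with brain 99.7% and 99.6%. This last class has no upper limit, so pileups in it were not alike. Regions called in all 4 tissues had a median pileup of 72 in distal and 71 in proximal forelimb. Those called in trunk and both forelimb parts reached at most 87 and 104. In each pileup class the share was lower without brain. Variation between libraries beyond counting was not measured.

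**Figure D2:**
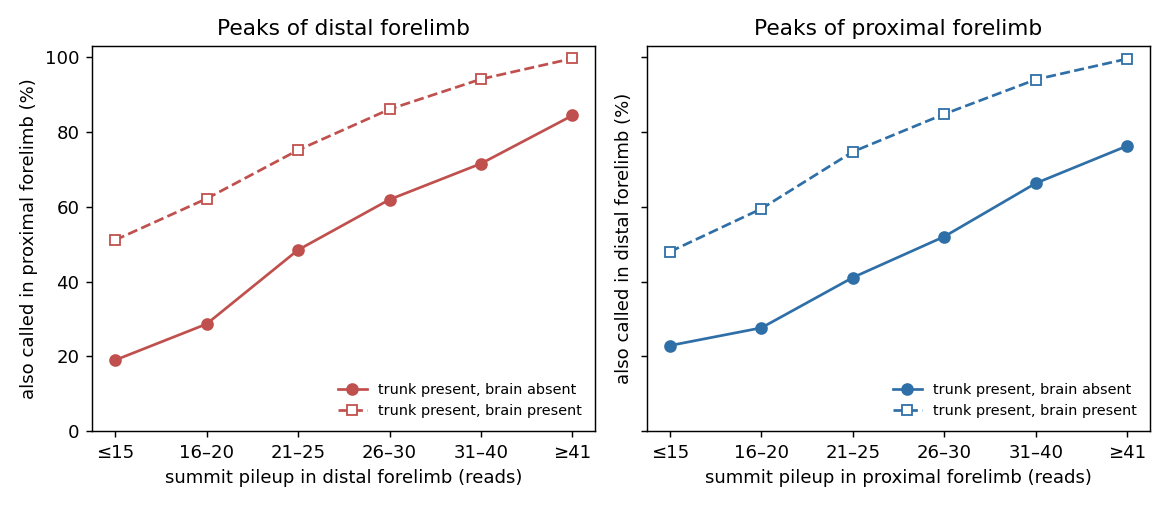
Share of peaks of 1 forelimb part that were also called in the other part, by summit pileup in reads, for regions with a trunk peak. Filled points are regions without brain and open points regions with brain. Filled points run from 19% to 84.4% for distal and from 22.9% to 76.3% for proximal peaks. They lie under the open points in every pileup class, the last of which has no upper limit.

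A missing call in the other forelimb part was compared with the pileup that part would have needed. Each pileup was scaled to the depth of the other forelimb library and divided by the highest pileup that would not have been called there at the scaled background. The median of this ratio was 1.55 in trunk+distal and 1.54 in trunk+proximal regions. It exceeded 1.5 in 1477 and 1367 regions and 2 in 251 and 183. Pileups of about 20 reads carry a wide counting error that the ratio does not include, and members were picked for passing in their own list, so the ratio leans high. For brain the same ratio, from the trunk pileup, had a median of 1.88 and 1.87 and exceeded 2 in 1042 and 1088 regions.

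The 10 trunk+distal regions with the highest distal folds are named by the gene that holds them or lies nearest, which can be far away. Ccnd2, the gene for cyclin D2 of the G1 phase, was 88.9 kb from chr6:127241048-127241476, where the fold was 6.86 in distal forelimb and 5.47 in trunk. This region ranked at percentile 47.1 and 53.8, so both lists placed it near their middle, and the nearest proximal peak was 25.3 kb away. Wnt4, a secreted Wnt ligand, was 0.264 kb from chr4:137277114-137277371, with folds of 6.20 in distal forelimb and 4.34 in trunk and both summits on the same base. The highest distal fold, 7.95, was on chromosome 18 at 59.6 kb from Sncaip, the gene for the synuclein-interacting protein synphilin-1, where trunk had 3.64.

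The other leading trunk+distal regions also had a forelimb fold above the trunk fold. Folds from libraries of unlike depth do not rank the tissues, and neither do ranks from lists of unlike length. By rank within each list trunk was the higher at Ccnd2, Wnt4 and Tbl1xr1. Lhfp, a gene for a tetraspan membrane protein, held chr3:53075451-53075800 at 6.70 in distal forelimb and 3.00 in trunk. Asap1, an Arf GTPase-activating protein gene, held chr15:64125600-64125986 at 6.59 and 2.53. Regions 247 kb from the transcription factor gene Ets1, 605 kb from the corepressor gene Tbl1xr1, in the cadherin gene Cdh13, in Serpinb9e and 55.5 kb from the interleukin receptor gene Il13ra2 had distal folds from 5.93 to 6.34. For all 10, the scaled pileup was between 2.67 and 3.93 times the highest uncalled one in proximal forelimb. Picking by forelimb fold favours regions of this order.

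The 10 trunk+proximal regions with the highest proximal folds are named in the same way. Shox2, a homeobox gene needed for the proximal limb skeleton, was 17.8 kb from chr3:66999565-66999934, which lies in the span of its neighbour Rsrc1, a splicing factor gene. Folds there were 6.69 in proximal forelimb and 5.80 in trunk, and the nearest distal peak was 44.1 kb away. Meis1, whose homeodomain protein marks the proximal limb bud, was the nearest gene to chr11:19373752-19374167 at 354 kb, with folds of 6.76 and 3.46. Dmrt2, a transcription factor gene of the somites, lay 19.8 kb from the region with the highest proximal fold, chr19:25698816-25699168, at 7.05 in proximal forelimb and 3.00 in trunk.

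The remaining 7 of these trunk+proximal regions had proximal folds from 5.96 to 6.90. Rere, a gene for a nuclear receptor coregulator, was 11.3 kb from chr4:150269840-150270223 at 6.90 in proximal forelimb and 4.89 in trunk. The chemokine gene Cxcl12 was 181 kb from a region at 6.45 and 5.39, and the imprinted gene Gnas, for a G protein subunit, was 13.4 kb from 1 at 5.96 and 3.79. Plac1 held a region at 6.37 and 2.69, and the histone gene H4f16 lay 0.366 kb from 1 at 6.09 and 3.14 that had a brain peak 0.205 kb away. The trunk fold was the higher value at 2 of the leading 10, in the Golgi adaptor gene Gga2, with 6.12 in proximal forelimb and 7.60 in trunk, and 231 kb from Smad2, a mediator of TGF-beta signals, with 6.21 and 8.49. By rank within each list trunk was the higher at 5 of the 10, which adds the regions at Rere, Rsrc1 and Cxcl12. The scaled pileup ratio to distal forelimb ran from 2.62 to 3.23 over these 10.

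**Figure D3:**
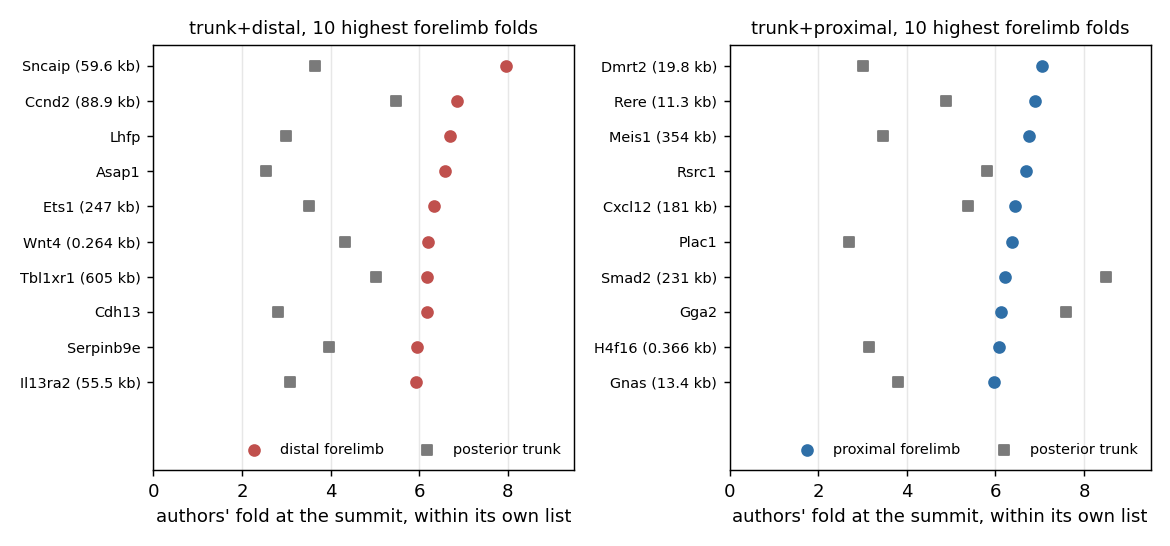
Authors' fold at the summit in the forelimb part (circles) and in posterior trunk (squares) for the 10 regions of each class with the highest forelimb fold, labelled by the gene that holds them or the nearest gene with its distance. Each fold is read within its own list. Forelimb folds lie between 5.93 and 7.95, and trunk is the higher value in 2 regions, at Gga2 and near Smad2.

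Regions with the highest trunk folds were different ones, with weak forelimb peaks. In trunk+distal these were led by chr11:85090228-85090638 in Usp32, a ubiquitin protease gene, with a fold of 11.4 in trunk and 3.20 in distal forelimb. Regions in Carf, 43.1 kb from the immediate early gene Fos, 225 kb from the corepressor gene Tle3 and 890 kb from Bcl11a followed, with trunk folds from 9.93 to 10.4. Trunk+proximal began with chr9:47288743-47289304, at 241 kb from the adhesion gene Cadm1, with 12 in trunk and 3.44 in proximal forelimb. It was followed by regions in Pls3, Fgf23, Spock1 and Arhgef5 with trunk folds from 9.16 to 10.1. Over these 10 regions the scaled pileup ratio to the missing forelimb part, taken from the forelimb pileup, was 1.51 to 2.17. The ratio to brain is taken from the trunk pileup instead, and it was 5.04 to 7.02. Picking by trunk fold favours high ratios to brain, so the 2 ratios are not set against each other.

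Regions high in both lists at once were chosen by the lower of their 2 rank percentiles. Besides Ccnd2, Tbl1xr1 and Wnt4, the trunk+distal class had Fgfr2, a fibroblast growth factor receptor of limb bud outgrowth, which held chr7:130257647-130257949 at percentile 41 in distal forelimb and 38.3 in trunk. Slc41a3, a magnesium transporter gene, held the remaining 1, at percentile 40.3 and 65.3. A proximal peak lay 0.575 kb and a brain peak 0.507 kb from that region. Asb7 was added in trunk+proximal to Rere, Rsrc1, Cxcl12 and Gga2. It held a region at percentile 44.6 in proximal forelimb and 60.3 in trunk, with a distal peak 0.747 kb and a brain peak 0.745 kb away.

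Genes of the limb bud had members of both classes around them. Windows of 50 kb around 25 distal limb genes held 223 regions, of which 7 were trunk+distal and 3 trunk+proximal, or 3.14% and 1.35%. These stand beside 1.97% and 2.09% over all regions. Around 25 proximal limb genes there were 8 of each class among 300 regions, or 2.67% for both. The counts are small. With a −log10 q of at least 5 in every list they were 9 and 2 among 191 regions for the distal limb genes. For the proximal ones they were 6 and 5 among 254. The contrast at the distal limb genes was thus kept at that limit, but the share over all regions was not computed there. With windows of 100 kb they were 8 and 6 among 357 regions for the distal limb genes, so most of that contrast was lost, and 11 and 10 among 434 for the proximal ones.

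Bmp7, a bone morphogenetic protein of the limb bud, held a pair of trunk+distal regions among 24 in its window, chr2:172933009-172933293 and chr2:172891548-172891778, with distal folds of 3.94 and 3.42 and trunk folds of 2.29 and 2.88. Ptch1, the receptor of hedgehog ligands, was 36.4 kb from a trunk+distal region at 3.65 in distal forelimb and 5.18 in trunk, and Jag1, a Notch ligand, held another at 3.58 and 2.79. On the proximal side, Gli1, a transcription factor of the hedgehog pathway, was 34.0 kb from a region at 4.02 in proximal forelimb and 4.2 in trunk. Msx1, a homeobox gene of the distal limb, had both kinds in its window, trunk+distal at 3.37 in distal forelimb and 3.13 in trunk, and trunk+proximal at 2.87 and 3.32.

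The window of Shox2 held 2 trunk+proximal regions among 4. The weaker of these was chr3:66939717-66939997 at 3.37 in proximal forelimb and 2.97 in trunk. Alx4, a paired-type homeobox gene, had a trunk+proximal region 7.85 kb away at 5.24 and 4.46, and a trunk+distal region 28.4 kb away at 3.22 in distal forelimb and 3.93 in trunk. Gdf5, a joint-forming growth factor gene, was 20.9 kb from a trunk+proximal region at 3.38 and 4.02.

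Trunk+distal regions were also present at proximal limb genes. Pbx3, a TALE homeobox gene, held a pair of them, the stronger with 4.25 in distal forelimb and 3.52 in trunk. Tbx5, which starts forelimb outgrowth, was 29.0 kb from a region at 4.09 and 3.88. Meis1 itself held a trunk+distal region, at 3.32 and 2.50, and no trunk+proximal region within 50 kb. Both classes were thus found at genes of the proximal limb.

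**Figure D4:**
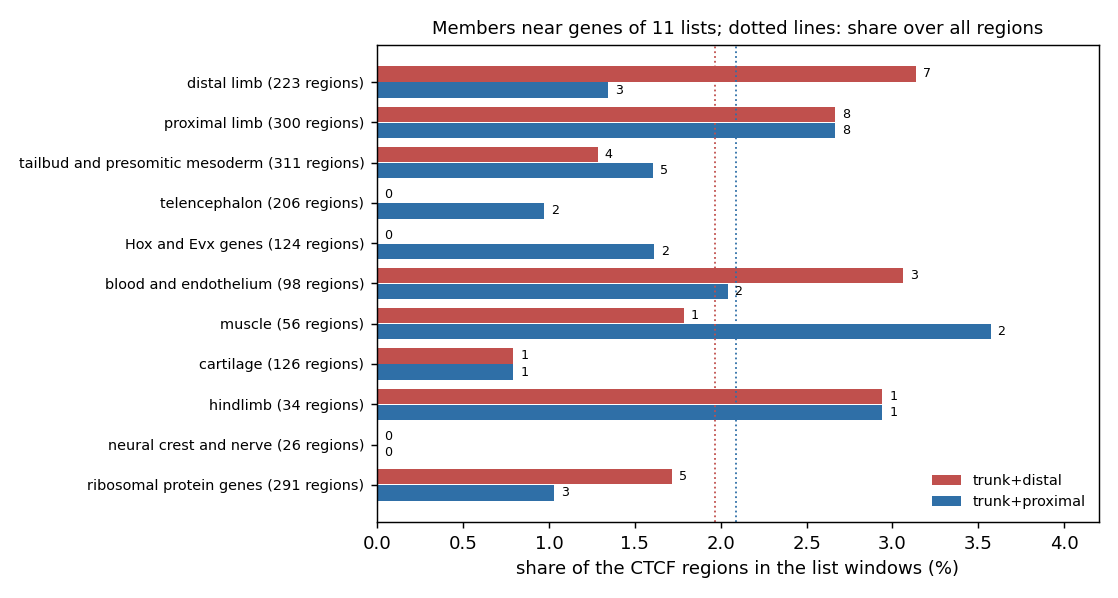
Share of the CTCF regions within 50 kb of the genes of 11 lists that were trunk+distal or trunk+proximal, with the number of members beside each bar. Dotted lines show the share over all regions, 1.97% and 2.09%. Distal limb genes had 7 against 3 members, and the lists of few regions rest on 0 to 3 members.

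The Hox clusters held 0 trunk+distal and 2 trunk+proximal regions, too few to tell from the shares over all regions. HoxA had 1 trunk+proximal region among 28, chr6:52242953-52243237 in Hoxa11, a gene of the middle limb segment, with folds of 2.72 in proximal forelimb and 2.77 in trunk. HoxB had 1 among 23, chr11:96366557-96367126 at Hoxb1, a gene of hindbrain patterning, with 3.00 and 6.25. HoxC and HoxD had 0 members of either class among 22 and 20 regions.

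Around 25 tailbud and presomitic mesoderm genes 4 regions were trunk+distal and 5 trunk+proximal among 311, or 1.29% and 1.61%. These counts are too small to set apart from the 1.97% and 2.09% over all regions. Tcf15, a bHLH gene of the paraxial mesoderm, was 10.4 kb from a trunk+distal region at 4.59 in distal forelimb and 4.16 in trunk, and Tbx6, a T-box gene of the presomitic mesoderm, was 13.5 kb from a trunk+proximal region at 4.19 in proximal forelimb and 2.88 in trunk. Msgn1, another regulator of that tissue, held a trunk+proximal region at 2.83 and 6.20. Other trunk+distal regions were near Ripply2, Hes7 and Cdx2, and other trunk+proximal ones near Nkx1-2 and in Meox1 and Wnt5a.

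Windows around markers of other cells that the samples could hold had few members. The shares over all regions were 1.97% trunk+distal and 2.09% trunk+proximal, and counts this small do not set a list apart from them. Blood and endothelial genes had 3 trunk+distal and 2 trunk+proximal regions among 98, or 3.06% and 2.04%. They were led by Tal1, a regulator of blood cells, 40.6 kb from a trunk+proximal region at 4.94 in proximal forelimb and 3.39 in trunk. Runx1 held 1 of each class. Muscle genes had 1 and 2 among 56, or 1.79% and 3.57%, with Pax3, a gene of migrating muscle precursors, 46.9 kb from a trunk+proximal region at 4.23 and 2.75. Cartilage genes had 1 of each among 126, both in Sox5, and hindlimb genes 1 of each among 34, both in Tbx4. Telencephalon genes had 0 trunk+distal and 2 trunk+proximal regions among 206, or 0% and 0.97%, the 2 being near Nkx2-1. Neural crest genes had 0 among 26. Ribosomal protein genes had 5 trunk+distal and 3 trunk+proximal regions among 291, or 1.72% and 1.03%. What such cells contribute to the members was not tested.

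By position both classes were close to the regions as a whole. Protein-coding gene spans held 52.2% of trunk+distal and 54.9% of trunk+proximal regions, against 51.8% of all. Within 1 kb of either end of such a span lay 10.3% and 9.53%, against 10.4% of all regions. A promoter window was touched by 5.44% and 4.66% of the members on the chromosomes with such windows, by 3.70% of trunk-only regions and by 5.82% of those called in all 4 tissues. The nearest region called in all 4 tissues was at a median of 14.0 kb from trunk+distal and 13.2 kb from trunk+proximal regions. Trunk-only regions had 16.2 kb.

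Across chromosomes, trunk+distal regions were between 45.5% of the members, on X, and 52.8%, on chromosome 8, leaving out Y with its single member. A peak of the missing forelimb part lay within 1 kb of 140 trunk+distal and 155 trunk+proximal regions, or 5.84% and 6.10%, and at a median of 10.9 and 10.3 kb. Brain had a peak within 1 kb of 6.51% and 7.17%.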

How the data were processed

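CTCF ChIP-seq peak lists of 4 libraries were used, 1 per tissue. MACS2 2.1.1.20160309, Bowtie2 2.3.5, cutadapt 1.16, SAMtools 1.9 and build mm10 are named by the submitters' processing notes, with options and any control library not given in the sources used here. Each deposited peak carries a fold (a ratio with a pseudocount of 1), a −log10 p-value, a −log10 q-value, a score of 10 times the −log10 q, and a summit offset. Rows with the same interval were collapsed to their strongest summit. Only peaks on chromosomes 1 to 19, X and Y were analysed, and coordinates are 1-based.

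Fold and p gave back whole pileups, and the p computed from these differed from the deposited −log10 p by 0.00031 or less. Read totals are unknown. Scaled ratios assume that the local background scales with depth. Genes are RefSeq protein-coding spans, all list genes were matched, and summits in promoters were searched for the motif. Named are, per class, the 10 highest forelimb folds, the 5 highest trunk folds, the 5 highest lower percentiles, up to 4 members per list, Hox members and leading promoter members. A member that this rule names is not reported here. Members and lists were chosen with earlier results of these data known. Pileup recovery and merging were tested on simulated data. Python 3.11.15, numpy 2.4.6, pandas 2.3.3, scipy 1.17.1 and matplotlib 3.10.9 were used.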

Additional observations from a re-analysis of the deposited data

Results flagged for a closer look

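Unplaced, unlocalised and mitochondrial sequences, which no comparison used, held 139 regions. The same rule gave 1 trunk+distal and 1 trunk+proximal region there. They drew attention as signal in data outside the comparisons, with no control library to set them against.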

How the results depend on the processing

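The −log10 p threshold of 5 without thinning was chosen after seeing the data, and the other settings were planned. Counts of 2398 trunk+distal and 2540 trunk+proximal regions stayed within 1.5 times when peaks were joined by summits, when a tissue counted as present within 500 bases, at a −log10 p of at least 5, and after thinning to equal lowest background at that threshold. Thinning gave 2486 and 2369, of which 1398 and 1418 overlapped the original members of the class. With a −log10 q of at least 5 there were 1511 trunk+distal regions and 1756 trunk+proximal regions, and 889 and 1048 overlapped original members. Lists of equal length gave 988 and 1184, ignoring brain 5937 and 6009, and ignoring trunk 6182 and 5251, so trunk+distal was the larger class after thinning and without the trunk rule. Members in list windows, 30 and 27, became 53 and 49 with 100 kb windows. At that q limit they were 27 and 14, where the whole classes held 1511 and 1756 regions. The number of all regions in these windows was not taken over the lists together. These counts therefore do not show a difference between the classes near list genes. The share near a gene end was 22.6% for each class within 5 kb. Wider windows or fewer tissues in the rule can only raise these values, so such rises are by construction. The changes with fewer peaks are not fixed in this way, and their cause was not tested. The motif shares were 8.33% and 6.25% at trunk summits. The planned search in windows of 100 bases on each side of a summit was not run, since it needs a genome. No paired analysis was possible because no tissue had more than 1 library.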

Other observations

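Members spread over many genes. The spans of 2180 among 21887 protein-coding genes held at least 1, and 199 of these held both classes, 932 trunk+distal only and 1049 trunk+proximal only. The classes were 1.97% and 2.09% of all regions, so most genes with a member would hold only 1 class. These counts do not show that the classes lie in different genes. The genes named here were chosen after their values were seen, and long genes hold more regions of every kind. Gmds, an enzyme gene of GDP-fucose synthesis, held 4 trunk+distal and 0 trunk+proximal regions among 35. Tiam1, a Rac exchange factor gene, held 0 and 4 among 39, and Tshz2, a teashirt zinc-finger gene, 1 and 5 among 44. Rbms3, an RNA-binding protein gene, held 4 of each among 71.

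The nearest region of the same class was at a median of 278 kb for trunk+distal and 229 kb for trunk+proximal, and the nearest of the other class at 244 kb and 252 kb. Within 100 kb of another of their own class were 581 trunk+distal and 736 trunk+proximal regions, and within 100 kb of the other class 606 and 636. The classes differ in size, and the spacing of equally large sets drawn from all regions was not computed. These distances and counts therefore do not show clustering in either class.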
